A study of Mus musculus with 300 samples.

Results

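Expression of 5 genes that mark tissue macrophages, Adgre1 (ENSMUSG00000004730), Apoe (ENSMUSG00000002985), C1qb (ENSMUSG00000036905), C1qc (ENSMUSG00000036896) and Cd68 (ENSMUSG00000018774), was followed across single cells of the embryonic thymus. They were chosen by name, as 5 of the 13737 features of the expression matrix, and all 5 were measured. The cells belong to the early thymic progenitor (ETP) population of E15.5 embryos (embryonic age in days) of the 5x polychromILC strain, which carries reporters for lymphoid regulator genes; every cell analysed carries them, and there is no treatment or control group. The labels give 300 cells of 4 mouse ids (1A, 1B, 2A and 2B), each sequenced as its own full-length cDNA library (Smart-seq2) on 4 plates, named AF1, AF2, JW7 and JW8, in 2 sequencing pools. In the matrix, 67 cells are labelled 1A, 69 are 1B, 64 are 2A and 61 are 2B, and 39 labelled cells were not analysed here. The sources used here do not give how the ETP gate was drawn or whether a mouse id is 1 embryo or several.

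Macrophages settle in fetal organs early and clear dying cells, of which the thymus makes many as it selects T cells. C1qb and C1qc encode chains of C1q, the opening molecule of the classical complement pathway, which also tags dying cells for uptake; the remaining chain comes from C1qa. Adgre1 encodes F4/80, an adhesion G protein-coupled receptor used as a surface marker of mouse macrophages and also known from eosinophils. Apoe encodes apolipoprotein E, which carries cholesterol and other lipids out of cells and is made by several cell types, and Cd68 encodes a heavily glycosylated protein of late endosomes and lysosomes that is abundant in macrophages and also found in other phagocytes and in plasmacytoid dendritic cells.

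On the mouse genome build GRCm38, all 5 are protein-coding genes. C1qb (chr4:136880129-136886187) and C1qc (chr4:136889804-136893065) lie on the minus strand with 3616 bases between them, and C1qa (chr4:136895917-136898803) follows on the same strand after a further 2851 bases. Adgre1 lies at chr17:57358691-57483527 on the plus strand, Apoe at chr7:19696109-19699188 on the minus strand and Cd68 at chr11:69664213-69666153 on the minus strand. The 250 bases before the RefSeq start of C1qb, C1qc and Cd68 (GRCm38.p6, minus strand, written 5′ to 3′) are shown because the neighbouring C1q genes were high in nearly the same cells, while Cd68 was high in many others. Capitals mark matches, on either strand, to GAGGAA, the core of sites of the myeloid factor PU.1, to TGANTCA, the site of AP-1 factors, and to the interferon response element (GAAA, any 2 bases, GAAA), bound by interferon regulatory factors; no match to the last was found in these 3 windows, and no matches overlapped.
C1qb, chr4:136886201-136886450: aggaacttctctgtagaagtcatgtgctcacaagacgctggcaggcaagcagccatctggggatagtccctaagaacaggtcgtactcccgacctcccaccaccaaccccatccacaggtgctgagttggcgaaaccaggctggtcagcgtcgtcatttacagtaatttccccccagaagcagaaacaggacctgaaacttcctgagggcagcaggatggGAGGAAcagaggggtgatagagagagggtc
C1qc, chr4:136892915-136893164: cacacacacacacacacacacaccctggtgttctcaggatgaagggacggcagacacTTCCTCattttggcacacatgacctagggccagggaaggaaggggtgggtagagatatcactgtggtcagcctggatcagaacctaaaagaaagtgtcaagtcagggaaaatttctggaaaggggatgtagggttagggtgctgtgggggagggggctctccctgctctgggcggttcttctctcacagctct
Cd68, chr11:69666171-69666420: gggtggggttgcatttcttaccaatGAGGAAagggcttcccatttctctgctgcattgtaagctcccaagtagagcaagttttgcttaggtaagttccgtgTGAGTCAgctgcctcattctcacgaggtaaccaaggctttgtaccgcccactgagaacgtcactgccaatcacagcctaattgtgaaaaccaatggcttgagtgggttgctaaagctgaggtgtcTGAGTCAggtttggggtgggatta
C1qb and C1qc each held 1 GAGGAA, in C1qc as its reverse complement, and Cd68 held 1 GAGGAA and 2 TGANTCA. Of 32851 RefSeq promoters of the same length, 23.3% held GAGGAA, 6.75% TGANTCA and 2.98% the interferon response element. A match describes these letters only and was not tested as a binding site.

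The deposited values run from -4.13 to 15.99 and were read as log2 expression from this range; no source used here states their log base or normalization. They fall into 4 sets of cells, recognised by exactly shared values, between which a gene's lowest value differs, as a correction between batches would leave: sets 1 to 4 hold 65, 73, 67 and 56 cells. A gene's lowest value recurs in many cells of a set and was taken as its value at no reads; a gene is called detected above it, its level is the value minus it, and a cell is called high for a gene at a deposited value of at least 5. Read depth is not in the matrix, so the number of detected genes stands for it, with a median of 7782 per cell (5073 to 10337). The labelled mice and the sets disagree for some cells. Sets 1 and 3 held nearly only cells labelled 1B (64 of 65) and 1A (61 of 67), whereas sets 2 and 4 each held both 2A (35 and 26) and 2B (36 and 25). The Y-linked gene Eif2s3y was detected in 0 of 65, 59 of 73, 6 of 67 and 38 of 56 cells of sets 1 to 4, and among cells labelled 1A in 6 of the 61 of set 3 but 4 of the 5 of set 4. The mouse labels form 4 unbroken runs when the cell names are sorted as text and 8 when sorted by plate and well number, while the sets form 4 runs by well number. Values per labelled mouse are therefore given beside values per set. No index pair was used by more than 1 cell of a pool, and 82 index pairs were used in both pools.

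Cells high for these genes ranged from a handful to nearly 1 cell in 3. C1qb and C1qc were each high in 8 cells (3.07% of all), Adgre1 in 15 (5.75%), Cd68 in 44 (16.9%) and Apoe in 83 (31.8%). By labelled mouse the share of high cells was 3.11 ± 1.41% for C1qb, 3.12 ± 1.42% for C1qc, 5.83 ± 2.19% for Adgre1, 16.9 ± 1.27% for Cd68 and 31.7 ± 3.79% for Apoe (mean ± SD of 4 mice). In the order 1A, 1B, 2A, 2B, Cd68 was high in 12, 11, 10 and 11 cells and Apoe in 23, 24, 17 and 19. Adgre1 was high in 4, 2, 4 and 5 cells of the same mice, C1qb in 1, 2, 2 and 3, and C1qc in 2, 1, 2 and 3. Every labelled mouse thus held cells high for each gene. In 1A, the cells high for a C1q gene were AF2 well 60 of set 4 (C1qb and C1qc) and AF1 well 9 of set 1 (C1qc). None lay in set 3, which holds 61 of the 67 cells labelled 1A, so their mouse label is uncertain. With 61 to 69 cells a mouse, the exact (Clopper-Pearson) 95% intervals of the C1qb share overlapped. They ran from 0.0378 to 8.04% in 1A and from 1.03 to 13.7% in 2B. By set the picture was less even: C1qb and C1qc were each high in 2, 4, 0 and 2 cells of sets 1 to 4, and Adgre1 in 1, 8, 5 and 1. For C1qb in set 3, 0 of 67 cells allows a share of up to 4.48% by the limit of 3 cells used here for a count of 0, and the exact 95% interval reaches 5.36%. Intervals and floors cover counting error only.

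**Figure D1:**
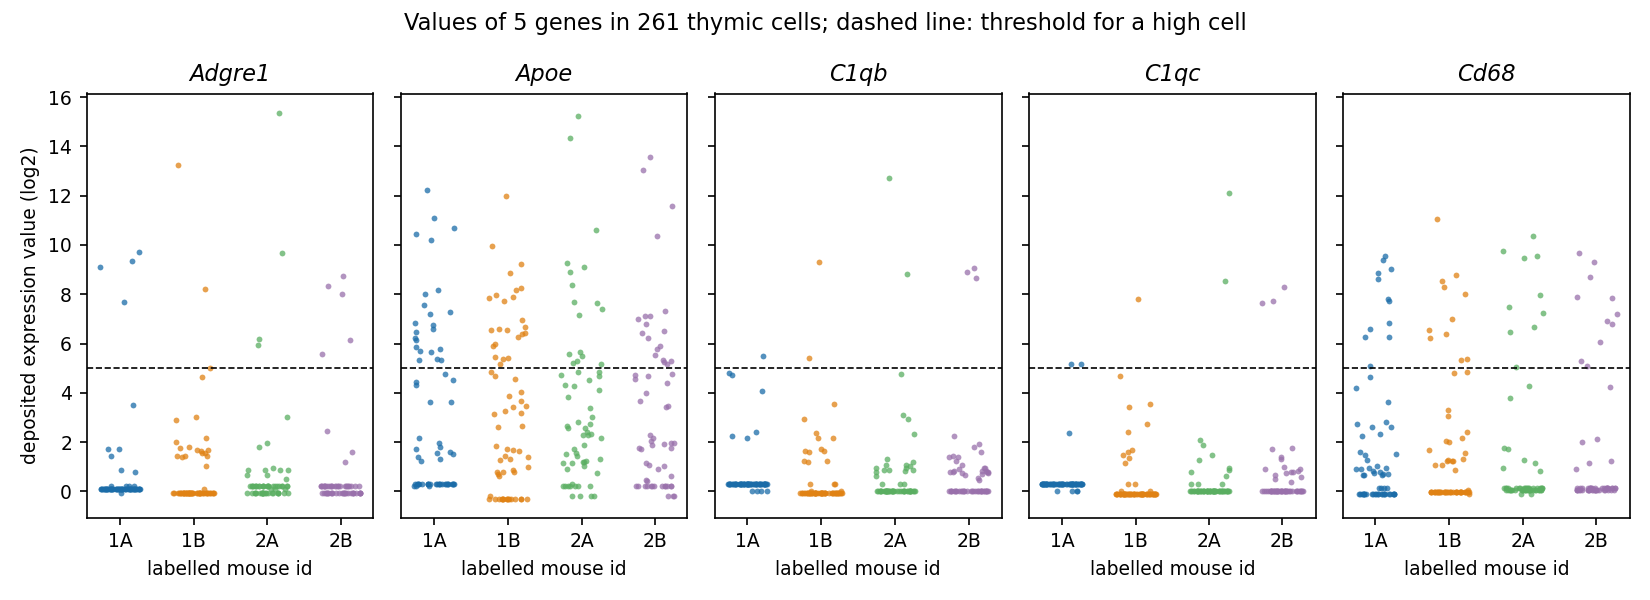
Deposited log2 value of each gene (y axis) in every cell, by labelled mouse id (x axis); each point is a cell, the horizontal jitter has no meaning and the dashed line is the threshold of 5. C1qb and C1qc show 8 cells each above the line and Apoe 83, and below it most cells sit at the value for no reads for each gene except Apoe.

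The threshold fell in a wider gap between values for the rarer genes than for Apoe and Cd68. The lowest high value and the nearest one below it were 5.56 and 4.999 for Adgre1, 5.40 and 4.82 for C1qb, 5.15 and 4.68 for C1qc, 5.17 and 4.86 for Apoe, and 5.05 and 4.84 for Cd68. Medians over high cells were 8.34 for Adgre1, 8.85 for C1qb, 7.76 for C1qc, 6.81 for Apoe and 7.62 for Cd68. Detection without a high value was common: Adgre1 was detected in 53 cells, C1qb in 68, C1qc in 42, Cd68 in 39.1% and Apoe in 72.0% of all cells. Among cells that were detected but not high, the median level was 1.6 for Adgre1, 1.23 for C1qb, 1.29 for C1qc, 1.48 for Cd68 and 2.09 for Apoe. Cells high for Cd68 had a median of 7018.5 detected genes and cells high for Adgre1 6847, against 7782 over all cells; the part of this gap in their values was not tested.

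Cells high for the 2 C1q genes overlapped strongly, while 24 of the 44 Cd68-high cells were high for no other of the 5 genes. Of the 8 cells high for C1qb, 7 were high for C1qc (87.5% of each list), and all 8 C1qc-high cells were high for Apoe (9.64% of the Apoe-high cells). Of the 15 Adgre1-high cells, 14 were high for Apoe (93.3%; 16.9% of the Apoe-high cells), 8 for Cd68 and 5 for C1qb. Apoe and Cd68 were high together in 19 cells, 22.9% of the Apoe-high and 43.2% of the Cd68-high cells. Cd68 was high in 5 of the 8 C1qb-high cells (62.5%) and 6 of the 8 C1qc-high cells (75%), against 16.9% of all cells. These were 11.4% and 13.6% of the Cd68-high cells. High values of at least 1 of the 5 genes were found in 41.8% of cells: 80 cells were high for 1, 19 for 2, 5 for 3, 0 for 4 and 5 for all 5. At thresholds of 4 and 6 the number high for all 5 was again 5.

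The 5 cells high for every gene were AF2 well 72 and JW7 well 44, labelled 2A, and JW7 wells 71, 75 and 92, labelled 2B. JW7 lies in set 2 and AF2 well 72 in set 4. None of the 67 cells of 1A or the 69 of 1B belonged to this group, which by the limit of 3 cells allows shares of up to 4.48% and 4.35%. C1qb had deposited log2 values of 12.70, 8.80, 8.90, 9.05 and 8.65 in these cells, in the order named, and C1qc 12.12, 8.55, 7.62, 8.31 and 7.72. Adgre1 had 15.37, 9.67, 8.0, 8.34 and 8.73. AF2 well 72 stood above the others for all 3 of these genes. Apoe had 15.25, 14.35, 11.57, 13.56 and 13.03, and Cd68 10.37, 9.48, 6.78, 9.66 and 8.69. JW7 well 71 was the lowest of the 5 for Adgre1, Apoe, C1qc and Cd68, and with AF2 well 72 it held high Mki67, a gene of dividing cells (9.63 and 10.08, against 0.80 to 4.88 in the other 3). Other cell cycle genes were mixed in JW7 well 92, with levels of 10.69 for Mcm6 and 7.71 for Cdk1 but 0 for Ccnb1, Aurka, Aurkb and Rrm2.

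**Figure D2:**
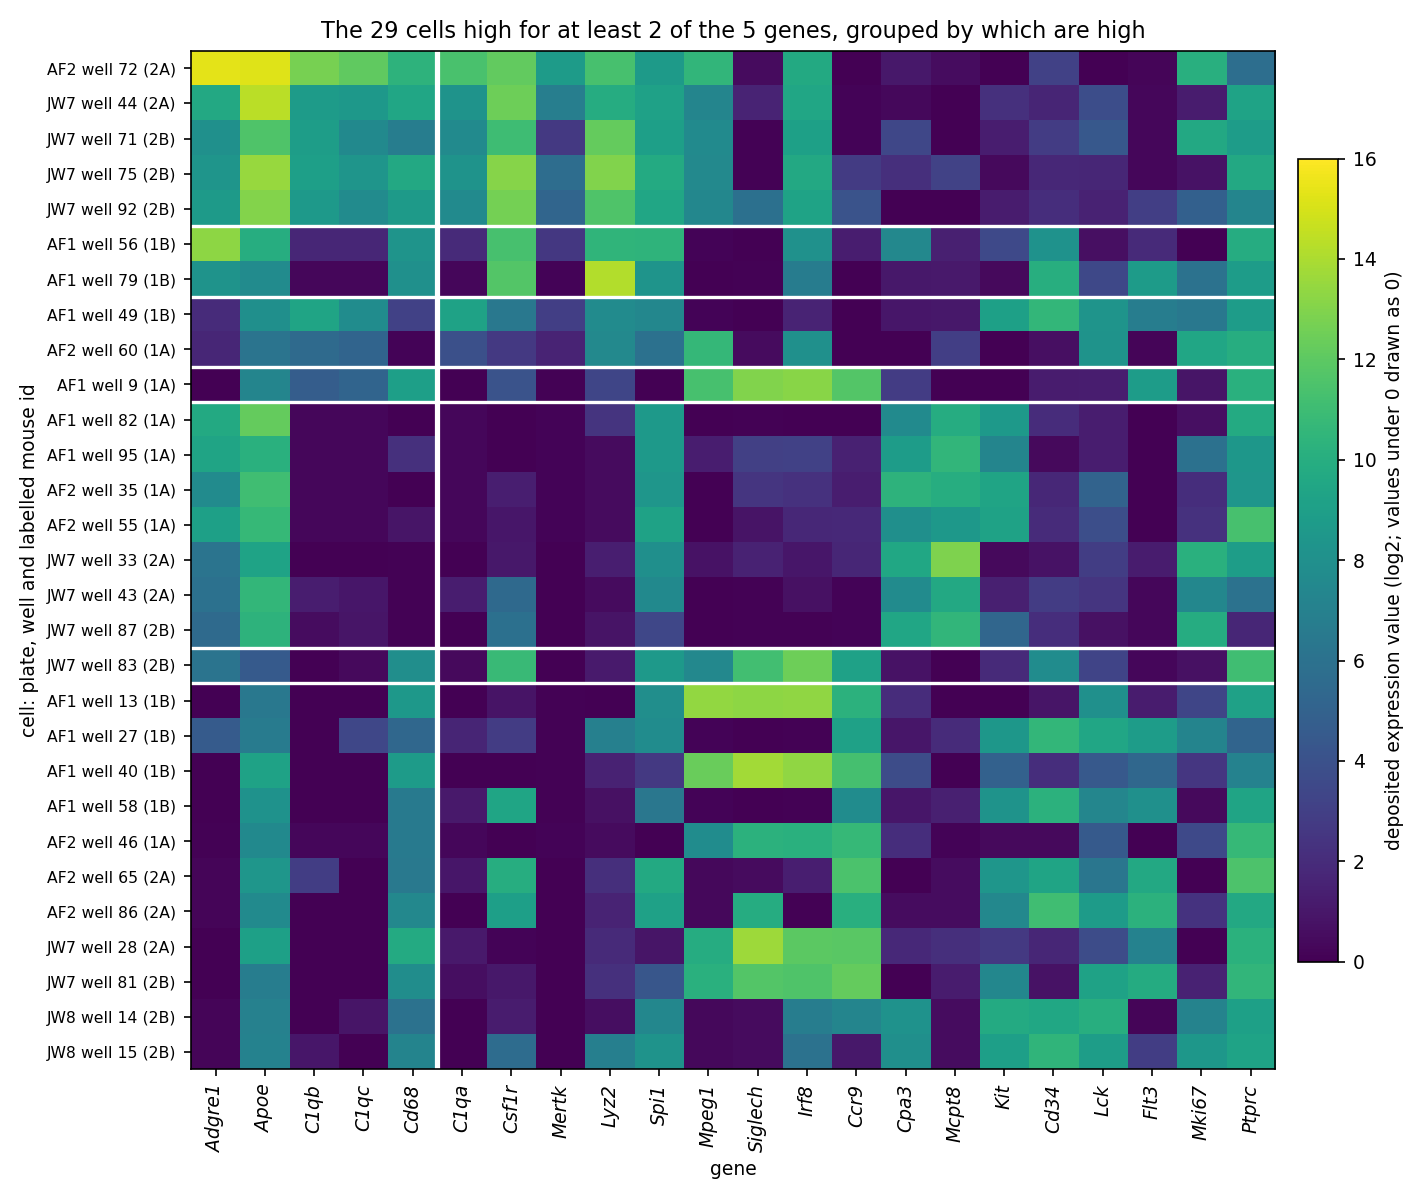
Deposited log2 values (colour; values under 0 drawn as 0) of the 5 genes and 17 marker genes (columns) in the 29 cells high for at least 2 of the 5 genes (rows: plate, well, labelled mouse id), with white lines between combinations. The 5 top rows are high for all 5 genes and for C1qa, Csf1r, Lyz2, Spi1 and Mpeg1, and the 7 cells high for Adgre1 and Apoe alone are high for Cpa3 and Mcpt8.

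The label of the genes was checked in these 5 cells against a list of other macrophage genes. Of 24 measured besides the 5 genes, 21 were detected in all 5 cells, and 22 had a mean level at least 2 log2 above that of all other cells, with a median difference of 6.47. The same rule held for 8.26% of all 13737 features, whose median difference was -0.33; the cells were picked by 5 genes that such a list accompanies, so the contrast carries no test. Csf1r, the receptor for the growth factor that maintains macrophages, had a mean level of 12.11 ± 0.78 (SD over the 5 cells) against 3.02 in the other cells. C1qa, the remaining C1q chain, had 8.63 ± 1.59 against 0.26. Timd4, a receptor for phosphatidylserine on dying cells, ranged from 4.09 to 9.35 against a mean of 0.04, and Mertk, a kinase receptor that binds bridged dying cells, from 2.68 to 8.78 against 0.08. Siglec1 and Itgam were the 2 that did not differ by 2, with mean levels of 1.86 and 2.44 against 1.36 and 1.48. The summed level of the 24 genes was 166.02 to 196.17 in the 5 cells and at most 94.62 in any other cell.

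Genes of the functions these proteins serve were high in the same cells. The lists overlap, so their counts are not separate. Among the higher genes, Axl, Mertk, Nr1h3 and Timd4 of lipid handling and uptake and C1qa of complement were also in the macrophage list. Lrp1 counts under both lipid handling and complement. A mean level at least 2 log2 higher was found for 8.26% of all features. Among 21 lysosomal and phagocytic genes, 18 had a mean level at least 2 log2 higher, led by Psap, a precursor of lipid-degrading activators (13.15 against 7.31), the protease genes Ctsb (12.88 against 7.12) and Lgmn (11.75 against 2.29), and Grn, which encodes progranulin (12.34 against 5.23). Of 24 genes of lipid handling and dying-cell uptake, 18 were higher. They included the cholesterol exporters Abca1 (6.76 against 0.29) and Abcg1 (8.12 against 3.89) and the sterol-sensing receptor Nr1h3 (6.23 against 0.05). Of 16 other complement genes, 9 were higher, among them C3 (7.57 against 0.18), properdin, Cfp (8.79 against 1.91), and C3ar1, the receptor of a C3 fragment (7.45 against 0.47), while Cd93, once described as a C1q receptor, was detected in none of the 5 cells and in 60.5% of the others. Of 10 other adhesion receptors of the family of Adgre1, Adgre5 alone was higher (7.82 against 2.09), and Adgrg1, Adgrg3 and Adgrg5 were lower, Adgrg1 at 2.03 against 8.86.

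Among markers of other cell types, the progenitor genes were mostly lower there, and smaller shares were lower in the other lists. Of 12 progenitor genes 10 had a mean level at least 2 log2 lower, a rule met by 11.2% of all features, with Kit at 0.71 against 7.06 and Cd34 at 1.80 against 7.09. Of 20 T-lineage genes 8 were lower and 0 higher, Lck at 1.5 against 8.01 and Notch1 at 3.55 against 9.05, and Cd3e, Cd3g, Bcl11b and Rag1 were detected in none of the 5 cells. Of 8 mast and basophil genes 0 were higher and 1 was lower, as of 16 NK and innate lymphoid genes, and of 10 thymic stroma genes 0 differed. The shares lower in these lists, 12.5, 6.25 and 0%, were near or under the 11.2% of all features. For a mean level at least 2 log2 higher, the share of all features was 8.26%. Of 11 cell cycle genes 2 were lower, and of 10 B-cell genes 1 was higher. The dendritic list had 3 of 17 higher, Irf8 (9.35 against 3.11), Cd74 (7.46 against 2.56) and Batf3 (4.30 against 0.12), while Siglech ranged from 0.00 to 5.82. Among 10 monocyte and granulocyte genes Csf3r was higher (3.41 against 0.50), and 4 were lower, Mpo among them (1.72 against 7.15). Of 8 erythroid and megakaryocyte genes 2 were higher and 1 lower. Pf4, known also from macrophages, was at 5.05 to 7.21 in all 5 cells and was detected in 3.91% of the others; Epor, the erythropoietin receptor gene, had a mean of 2.12 against 0.06, and Itga2b, a platelet integrin gene, 0.74 against 2.78.

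**Figure D3:**
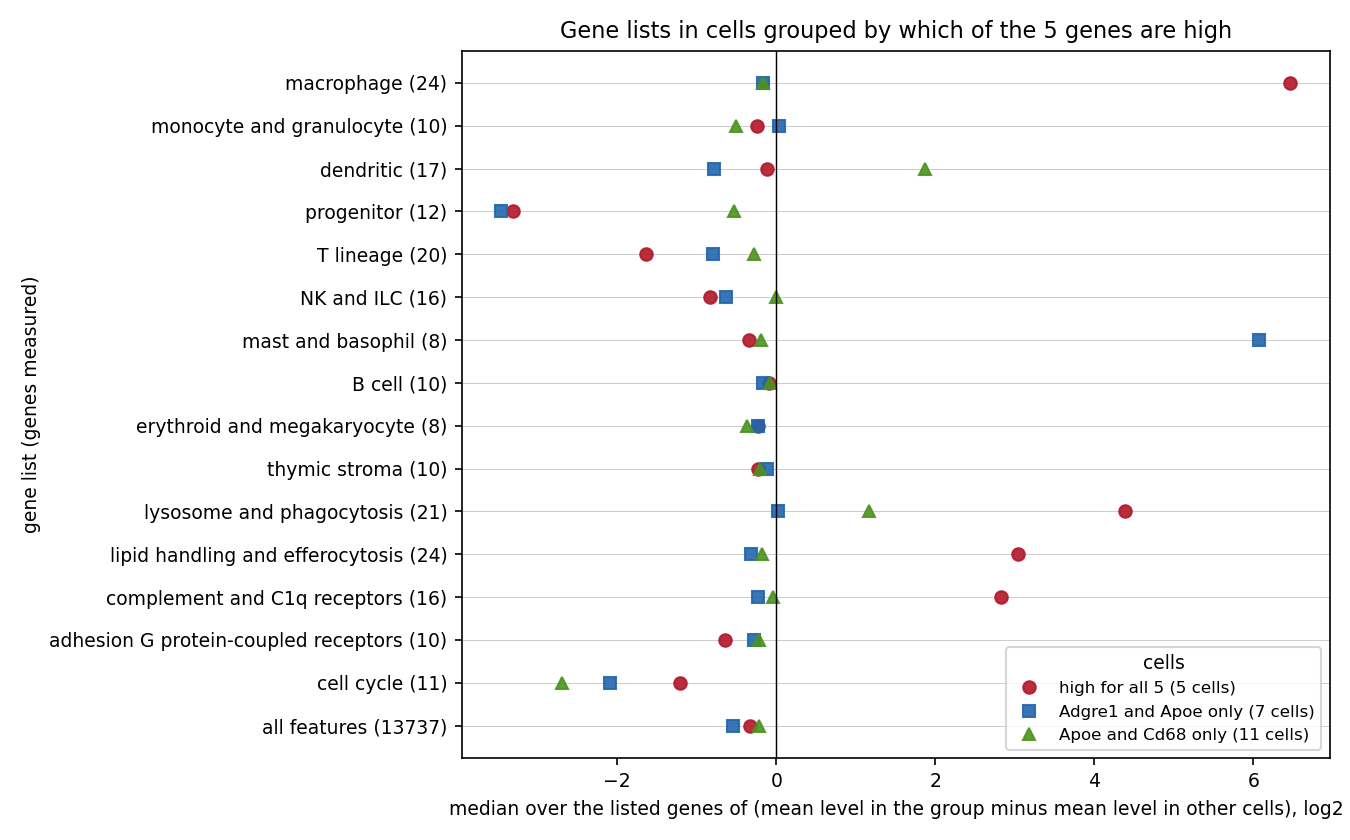
Median over the measured genes of each list (y axis, number in brackets) of the difference in mean level between a group of cells and all other cells (x axis, log2), for the 5 cells high for all 5 genes (circles), the 7 high for Adgre1 and Apoe only (squares) and the 11 high for Apoe and Cd68 only (triangles). The macrophage list sits at 6.47 for the first group and at -0.17 for the other groups, the mast and basophil list at 6.07 for the second, and the dendritic list at 1.87 for the third.

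Another 5 cells were high for 3 of the genes, in 3 combinations. AF1 wells 56 and 79, both labelled 1B, were high for Adgre1 (13.27 and 8.20), Apoe (9.98 and 7.71) and Cd68 (8.28 and 8.0), with high Csf1r (11.34 and 11.73) and Lyz2 (10.49 and 14.18) but C1qb at 1.72 and 0.29 and with Cd34 at 8.13 and 10.02. AF1 well 49, labelled 1B, was high for C1qb (9.32), C1qc (7.81), C1qa (9.19) and Apoe (7.99), and was also high for Kit (9.08), Cd34 (10.61) and Lck (8.28). AF2 well 60, labelled 1A, was high for Apoe (6.15), C1qb (5.51) and C1qc (5.16), with Lck at 8.24, and it shares a plate column with AF2 well 72. AF1 well 9, labelled 1A, was high for Apoe (7.27), C1qc (5.15) and Cd68 (9.03), with C1qb at 4.71, and held Siglech, a surface marker of plasmacytoid dendritic cells, at 12.99 and Irf8 at 13.18. Mertk was at 2.99 or less in these 5 cells, against 2.66 to 8.78 in the cells high for all 5 genes; whether any well held more than 1 cell was not tested. The remaining cell high for a C1q gene, AF1 well 39 of mouse 1B, had C1qb at 5.40 and C1qc at 4.68.

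Over all 10 cells high for at least 3 of the genes, the 20 other genes with the largest difference in mean level, among those detected in at least 80% of these cells, ran from Ctsh, a lysosomal protease gene (9.21 against 1.56), to Pld4 (7.88 against 2.40). In order they were Ctsh, Lyz2, Tgfbi, Csf1r, 1 ID without a symbol, Sdc4, Lgmn, Ctss, Cybb, Fcgr2b, Ly86, Plbd1, Fcgrt, Ccl24, C1qa, Clec4a1, Sat1, Spint1, Aif1 and Pld4. Their levels varied among the cells: C1qa ran from 0.00 to 11.44, Lyz2 from 3.36 to 14.07 and Lgmn from 0.00 to 14.06. A mean level at least 2 log2 higher was found for 4.17% of all features (5.71% were lower) and for 19 of 24 macrophage, 15 of 21 lysosomal and 12 of 24 lipid-handling genes. The 5 cells described first are among the 10.

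Adgre1 was also high outside the macrophage pattern. In 7 cells, Adgre1 and Apoe were the 2 high genes of the 5: AF1 wells 82 and 95 and AF2 wells 35 and 55, labelled 1A, JW7 wells 33 and 43, labelled 2A, and JW7 well 87, labelled 2B. Adgre1 had deposited log2 values of 9.71, 9.37, 7.70, 9.10, 6.18, 5.94 and 5.56 in them, in that order, and Apoe 12.23, 10.18, 11.08, 10.69, 9.26, 10.61 and 10.37. Adgre1 thus overlapped the range of the 5 cells high for all genes, 8.0 to 15.37, in 3 of the 7, and Apoe was above 9 in each. C1qb reached at most 1.30, C1qc 0.94 and Cd68 2.23. All 8 measured genes of the mast and basophil list had a mean level at least 2 log2 higher than in other cells, a rule met by 4.16% of all features (16% were lower), among them Hdc, which makes histamine (11.29 against 1.40), the basophil protease genes Mcpt8 (10.23 against 0.65) and Prss34 (9.46 against 0.55), and Ms4a2, a chain of the IgE receptor (7.67 against 0.28). Of the 24 macrophage genes 4 were higher, each known also from other myeloid cells: Tyrobp (10.97 against 6.91), Fcer1g (10.28 against 5.29), Fcgr3 (8.54 against 1.74) and Itgam (5.43 against 1.39). Lyz2 was lower (1.13 against 3.49). The summed macrophage list ran from 45.26 to 60.66 in the 7 cells, against a median of 37.93 elsewhere, and the mast and basophil sum from 50.05 to 64.43, against a median of 7.45 and a highest value of 74.2 elsewhere. Mcpt8 was high in 7 of 15 Adgre1-high cells and in 4 of all others (1.63%). The remaining cell high for Adgre1 without all 5, JW7 well 83, labelled 2B, had Adgre1 at 6.13 and Cd68 at 7.90, with Siglech at 11.16 and Csf1r at 10.81.

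Most cells high for Apoe were not high for the C1q genes, and they were high for the progenitor genes Kit and Cd34 about as often as the other cells. Of the 83 Apoe-high cells, 55 were high for no other of the 5 genes, spread over the mice as 16, 17, 10 and 12 and over the sets as 16, 8, 18 and 13. Kit was high in 66 of the 83 (79.5%) and in 79.2% of the other cells, and Cd34 in 58 (69.9%) against 71.9%. Csf1r was high in 39 (47%) against 25.8%, Mcpt8 in 10 (12%) against 0.562%, and C1qa in 6 (7.23%) against 0 of the others. Most Apoe-high cells thus went against the label of a macrophage gene by Kit, and few were high for C1qa, though 47% were high for Csf1r. Of the 83, 5 were high for all 5 genes. That number could not exceed the 8 cells high for C1qb, so it does not test the label.

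Cells high for Cd68 were often high for genes of plasmacytoid dendritic cells. Of the 44 Cd68-high cells, 24 were high for no other of the 5 genes, 10, 5, 5 and 4 by mouse. Siglech was high in 21 of the 44 (47.7%) and in 5 of the other cells (2.30%), the transcription factor gene Irf8 in 29 (65.9%) against 19.4%, and Ccr9, a chemokine receptor, in 26 (59.1%) against 12.9%. Mpeg1, a pore-forming protein gene of the macrophage list, was high in 23 (52.3%) against 0.922%. Kit was high in 18 (40.9%) against 87.1% of the others, and Lck in 26 (59.1%) against 92.2%. In the 11 cells high for Apoe and Cd68 only, Apoe ran from 6.40 to 9.22 and Cd68 from 5.34 to 9.76. In these 11 cells 8 of 17 dendritic genes had a mean level at least 2 log2 higher, a rule met by 1.72% of all features (3.19% were lower), with Ccr9 at 9.34 against 2.17 and Siglech at 6.52 against 1.65. Siglech was high in 6 of the 11 and Cd34 in 6. The list's summed level ran from 24.39 to 149.75 against a median of 22.23 elsewhere, and of the macrophage genes 2 of 24 were higher. Of the 44 Cd68-high cells, 5 were high for all 5 genes, a number likewise held to at most 8, which does not test the label.

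On the plates that held the 5 cells, low-level C1qb was found mostly in their rows and columns. C1qb was detected below the threshold in 60 cells, at a median level of 1.23 and under 1 in 24 of them. Libraries of a plate column share 1 index (i7) and those of a plate row the other (i5), so position and index cannot be told apart. On AF2, C1qb was detected in 9 of the 14 cells sharing a row or column with well 72 (64.3%, exact 95% interval 35.1 to 87.2%) and in 4 of the 66 others (6.06%, 1.68 to 14.8%). On JW7 it was detected in 29 of the 46 cells sharing a row or column with 1 of the 4 wells high for all 5 genes (63%, 47.5 to 76.8%) and in 1 of the 21 others (4.76%, 0.12 to 23.8%). The intervals with and without a common index did not overlap on either plate. They treat cells as independent, although the cells share 1 source well on AF2 and 4 on JW7, so this is no test. The source wells were chosen after their values were seen. Per source well C1qb was detected in 9 of 14 cells around AF2 well 72, and in 10 of 16, 12 of 15, 6 of 14 and 11 of 13 around JW7 wells 44, 71, 75 and 92. Among AF2 cells without a common index on their own plate, those with the index names of the JW7 sources, which belong to the other pool, had C1qb in 1 of 36 and the rest in 3 of 30. Among such JW7 cells, 1 of 2 with the index names of AF2 well 72 had C1qb, against 0 of 19 with other names. Around AF1 well 49, added as a source after its values were seen, C1qb was detected in 5 of 8 cells of the row, 0 of 7 of the column and 9 of 68 of neither.

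**Figure D4:**
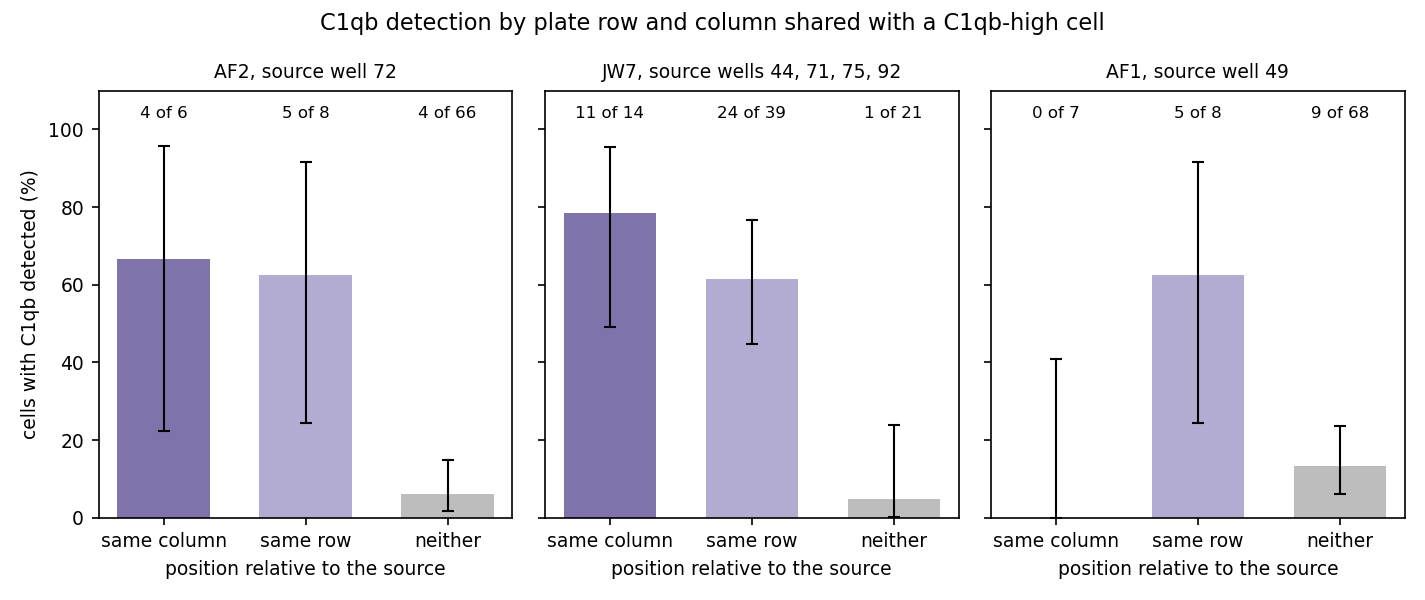
Percent of cells with C1qb detected (y axis) on 3 plates, for cells in the same plate column as a C1qb-high source cell, in the same row, or in neither (x axis); bars are shares, error bars exact 95% binomial intervals, and the counts stand above. On AF2 and JW7 the shares are 66.7 and 78.6% with a common column, 62.5 and 61.5% with a common row and 6.06 and 4.76% with neither.

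The level in these neighbours was low. On JW7 the median C1qb level of the 29 detected neighbours was 0.89 and the highest 2.31, and on AF2 the median of 9 was 1.96 and the highest 5.48, in AF2 well 60, which counted as high for C1qb. C1qc was detected in 4 of 14 cells with a common index and 0 of 66 without on AF2, and in 14 of 46 and 2 of 21 on JW7. Apoe was detected in 14 of 14 against 37 of 66 on AF2 and in 44 of 46 against 16 of 21 on JW7. Adgre1 was detected in 2 of 14 against 7 of 66 on AF2 and in 13 of 46 against 4 of 21 on JW7. For Cd68 the order was not the same, with 2 of 14 against 33 of 66 on AF2 and 13 of 46 against 6 of 21 on JW7. Median numbers of detected genes were 7509.5 with and 7740.5 without a common index on AF2, and 8168 and 7899 on JW7. The part of shared indexes in the low values was not tested. Plate JW8 held none of the 5 cells, and C1qb and C1qc were each detected in 5 of its 25 cells, C1qa in 1, Adgre1 in 0 and Cd68 in 4. By labelled mouse, C1qb was detected in 7, 14, 19 and 28 cells of 1A, 1B, 2A and 2B (26.6 ± 15.1%), and Cd68 in 38, 29, 18 and 17 (38.7 ± 13.7%).

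The next question was which genes vary together with each of the 5 among the cells of a mouse. Inside each labelled mouse a partial Spearman rho was computed over cells, given plate and the number of detected genes, and the 4 rhos per gene were tested with limma's moderated test, adjusted by Benjamini-Hochberg over 12438 genes at 0.05. Cells are not replicates here, and p is computed from 4 values, 1 per labelled mouse. The moderated test draws each gene's variance towards a value common to all genes tested. A p thus follows a gene's own spread between mice only in part. With Apoe, the genes Ccr1 (mean rho 0.357, SD 0.055) and Nutf2-ps2 (-0.356, SD 0.155) had the same limma adjusted p, 0.000119. Since 2A and 2B draw on the same 2 sets, p is too small if the sets follow the animal.

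C1qb and C1qc, the neighbours on chromosome 4 whose promoters are shown above, were the closest pair. Their rho was 0.662, 0.544, 0.500 and 0.263 in 1A, 1B, 2A and 2B, with a mean of 0.505 and limma adjusted p = 2.73e-13 in the fit for C1qb (4.47e-14 to 0.000776 over the alternatives, here and in the ranges below). In 1A, C1qc was detected in 3 of 67 cells, the fewest allowed, so every rho with C1qc in 1A rests on few cells. They were AF1 well 9 and AF2 wells 36 and 60. AF1 well 9 and AF2 well 60 lie outside set 3, which holds most cells labelled 1A. AF2 wells 36 and 60 share a plate column with the AF2 cell high for every gene. The mean counts the rho of 1A like the others. Without the 29 cells high for at least 2 of the genes the mean rho of C1qb and C1qc was 0.372 (adjusted p = 0.00021, limma). The remaining cells include those sharing a plate row or column with the 5 cells high for every gene. On AF2 and JW7, low-level C1qb and C1qc were found mostly in such cells. Fitted over the 4 sets the mean was 0.438 (adjusted p = 2.32e-08, limma), and without cells sharing an index with the 5 it was 0.643 (5.53e-06). That last fit kept the 5 cells, and no fit left out both them and their neighbours. The part of shared indexes in this rho was therefore not tested. C1qa ranked beside them, with a mean rho of 0.442 with C1qb and 0.556 with C1qc. Adgre1 and Apoe had 0.403, 0.415, 0.359 and 0.384, nearly the same in every mouse, with a mean of 0.391 (limma adjusted p = 9.81e-06 in the fit for Apoe, 1.65e-06 to 0.623). Adgre1 and C1qc had 0.103, 0.285, 0.530 and 0.595, higher in the 2 mice that hold the 5 cells (mean 0.395, limma adjusted p = 9.45e-05 in the fit for Adgre1, 2.55e-08 to 0.48); the difference between mice was not tested. Fitted over sets the means were 0.383 and 0.320, and both were called. Without the cells high for at least 2 of the genes, neither was called: Adgre1 and Apoe had a mean rho of 0.167 (limma adjusted p = 0.62 in the fit for Apoe) and Adgre1 and C1qc 0.21 (0.48 in that for Adgre1).

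**Figure D5:**
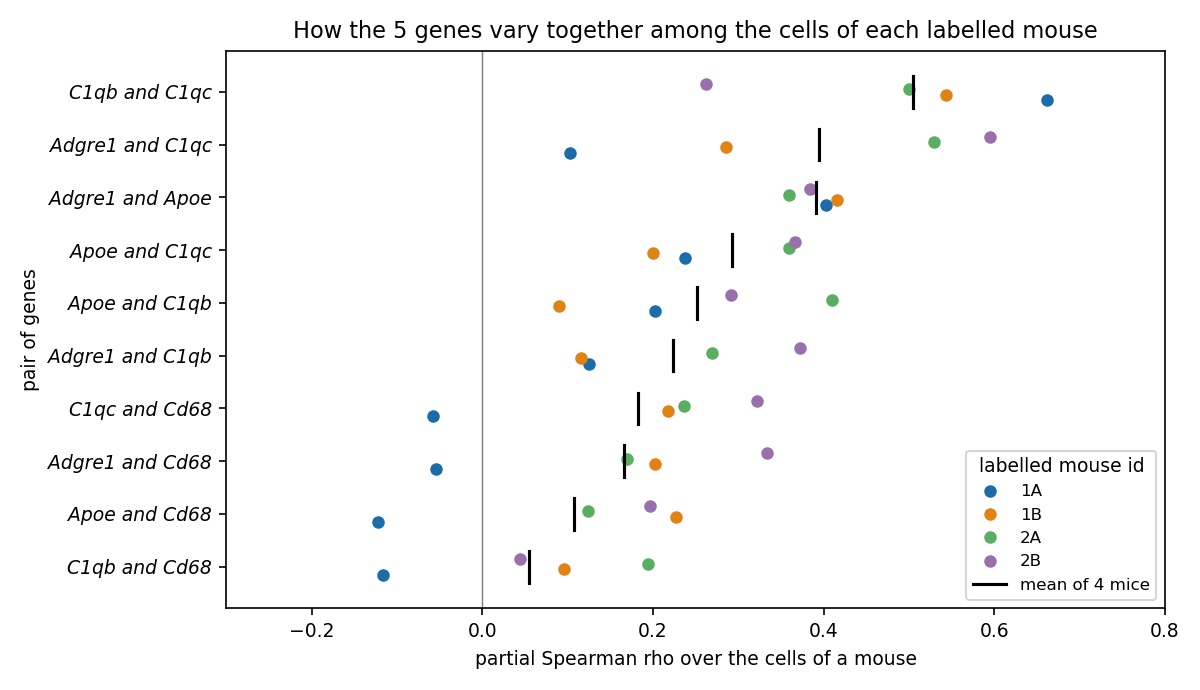
Partial Spearman rho between each pair of the 5 genes (y axis) over the cells of a labelled mouse (x axis), with a point per mouse and a black bar at the mean of the 4. C1qb and C1qc sit highest at a mean of 0.505, and every pair with Cd68 has mouse 1A below 0.

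Apoe was associated with C1qc (mean rho 0.293, positive in 4 of 4 mice, limma adjusted p = 0.00315 in the fit for Apoe). With C1qb its mean was 0.252, positive in 4 of 4 mice, and passed in the fit for Apoe (limma adjusted p = 0.0219) but not in that for C1qb (0.0792). Both calls in the fit for Apoe were lost without the 5 cells high for all genes (limma adjusted p = 0.0788 and 0.163, in ranges of 0.000886 to 0.537 and 0.00172 to 0.51). Adgre1 and C1qb had a mean of 0.224 and did not pass (limma adjusted p = 0.0673). No pair with Cd68 passed in this fit: the means were 0.166 with Adgre1, 0.108 with Apoe, 0.055 with C1qb and 0.183 with C1qc, with limma adjusted p of 0.18, 0.473, 0.781 and 0.124 in the fit for Cd68; the lowest over the alternatives were 0.075, 0.113, 0.0387 and 0.0179. In mouse 1A all 4 were negative, -0.0537, -0.122, -0.117 and -0.0583.

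C1qb was positively associated with 12 genes (0.0965% of those tested) and negatively with 0 by limma, with 300 negative at an unadjusted p under 0.05. Besides C1qc and C1qa they were led by Mrc1, the mannose receptor (mean rho 0.397, limma adjusted p = 5.98e-07), Clec7a, a receptor for fungal glucans (0.388), Plbd1, a lysosomal phospholipase-like gene (0.380), Slc40a1, the iron exporter ferroportin (0.343), and the chemokine gene Ccl24 (0.327), each positive in 4 of 4 mice. C1qc was positively associated with 27 genes (0.217%) and negatively with 0, with 362 negative at an unadjusted p under 0.05. Its closest after C1qa and C1qb were Plbd1 (0.463), Ccl24 (0.409), Aif1, a calcium-binding gene of macrophages (0.400), Slc40a1 (0.385) and C3 (0.374). Of 20 tested macrophage genes 4 passed with C1qb and 3 with C1qc, all positive, and the list's median rho was 0.151 with each, against -0.003 and -0.002 over all genes. Without the 29 cells high for at least 2 of the genes, 3 genes passed for each: C1qb kept C1qc, C1qa and Clec7a, and C1qc kept C1qa, C1qb and Ccl24, C1qc being fitted on 3 mice there. Without mouse 2A, 7 genes passed for C1qb and 9 for C1qc, and without 2B 14 for C1qc.

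Adgre1 was positively associated with 0.917% of the genes tested and negatively with 26 genes (0.209%), 140 in all. The closest were Ccr1, a chemokine receptor (rho 0.661, 0.460, 0.603 and 0.505 by mouse; mean 0.562, limma adjusted p = 6.72e-10), the inhibitory receptor gene Lilrb4a (0.517), the complement receptor gene C3ar1 (0.494), Gm49339 (0.486), the growth factor gene Csf1 (0.441) and the kinase gene Fer (0.439), each positive in 4 of 4 mice. Genes of the mast and basophil list and of the macrophage list were among those that passed. The cells that held these lists at high levels were grouped by high Adgre1, so the counts are no separate support. Of 6 tested mast and basophil genes 4 passed, Ms4a2 (0.411), Hdc (0.312), Prss34 (0.275) and Mcpt8 (0.268), with a list median of 0.271 against -0.018 over all genes. Of 20 macrophage genes 4 passed, among them C1qa (0.390), Fcgr3 (0.385) and Fcer1g (0.255), with a median of 0.197. The lowest rhos were those of Nutf2-ps2, a pseudogene whose reads may come from its parent gene (-0.297), the ribosomal protein gene Rpl31 (-0.291) and the T-cell kinase gene Lck (-0.284). Without the cells high for at least 2 of the genes, 2 genes passed for Adgre1, and C3ar1 was 1 of them (mean rho 0.313, limma adjusted p = 0.0335, in a range of 4.26e-09 to 0.0878). Without mouse 1B, 2A or 2B, 82, 73 or 71 genes passed.

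Apoe was positively associated with 92 genes (0.74%) and negatively with 76 (0.611%). After Adgre1 the closest were Ccr1 (0.357, limma adjusted p = 0.000119), Gm49339 (0.342), the inhibitory Fc receptor gene Fcgr2b (0.337), the cytokine gene Il18 (0.333) and the amino acid transporter gene Slc7a8 (0.331), each positive in 4 of 4 mice, and Nutf2-ps2 was the most negative (-0.356), before Banf1 (-0.322) and Polr2l (-0.320). Of 20 macrophage genes 6 passed, Tyrobp (0.309), Spi1 (0.262), Csf1r (0.261), Mrc1 (0.247), C1qa (0.241) and Aif1 (0.232), with a list median of 0.183 against -0.005 over all genes. Of 15 tested genes of lipid handling and dying-cell uptake, 0 passed by limma, with 2 at an unadjusted p under 0.05. Their median rho was 0.054. The list is wider than lipid transport by apolipoprotein E, and its genes below the detection filter were not tested. The pathway of apolipoprotein E was therefore not tested as such. Without the 29 cells high for at least 2 of the genes 0 genes passed for Apoe by limma, with 860 at an unadjusted p under 0.05, and without mouse 1A, 1B, 2A or 2B 8, 90, 72 or 26 passed.

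Cd68 was positively associated with 1.75% of the genes tested and negatively with 64 genes (0.515%), 2.27% in all. The closest were Ly86, a partner of a Toll-like receptor relative (rho 0.517, 0.471, 0.537 and 0.397 by mouse; mean 0.482, limma adjusted p = 3.28e-10), the cytokine receptor chain gene Csf2rb2 (0.432), Ppfia4 (0.428), A530032D15Rik (0.409), the DNA sensor gene Tlr9 (0.405) and Nrp1 (0.400), each positive in 4 of 4 mice. Of 14 dendritic genes 8 passed, all positive: Bst2 (0.323), Itgax (0.311), Ccr9 (0.30), Ly6d (0.285), Irf8 (0.281), Siglech (0.265), Spib (0.246) and Cd74 (0.237), with a list median of 0.242 against -0.015 over all genes. Of 21 lysosomal genes 7 passed, led by Grn (0.324), Ctsb (0.314) and Ctsl (0.313), with a median of 0.168. Of 20 macrophage genes 5 passed, among them Ctss (0.370) and Mpeg1 (0.345). The most negative were Txnrd1 (-0.294), Selenoh (-0.286) and Rps7 (-0.282). Without the 29 cells high for at least 2 of the genes 4 genes passed for Cd68, Ly86, Csf2rb2 and A530032D15Rik among them (mean rho 0.356, 0.382 and 0.343, limma adjusted p = 0.0149 for each, the highest over the alternatives for Ly86 and within 4.24e-09 to 0.0218 and 9.66e-08 to 0.0635 for the others). Without mouse 1A 84 genes passed, and without 2B 1.24% of those tested.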

How the data were processed

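Single sorted cells were made into oligo-dT primed, PCR-amplified and Nextera XT indexed libraries, per the labels' protocols. The deposited values were read as log2 expression from their range, and as corrected between sets of cells from lowest values that differ between sets. Salmon and GRCm38 are named, without versions, per the submitters' processing notes; the sources used here do not give the log base, the normalization, any correction or the filters. Deposited IDs were matched to GENCODE vM21 symbols (13578 matched, 154 without a symbol, 5 other features). Cells of a set were joined where over 5% of values were equal within 1e-09, and detection needed a value more than 1e-06 above the lowest repeated one; 12054 genes had such a value in all 4 sets, and where a set had none the deposited value was used as the level.

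A high cell has a log2 value of at least 5. Within each labelled mouse (member detected in at least 3 cells) partial Spearman rhos were computed for genes detected in at least 10% of cells, and their Fisher z values were tested against 0 in limma 3.58.1 (R 4.3.3; intercept only, two-sided) with Benjamini-Hochberg adjustment at 0.05; mean rhos were transformed back from mean z. The fit was also run on simulated data for Cd68 and Apoe, with levels shuffled within each mouse and 200 genes tied to the member. Its outcome is not reported here. Genes were named by rule: the 5 genes, up to 6 further called genes with the largest absolute mean rho, the 3 most negative called, the 20 leading genes of cells high for at least 3, and 15 gene lists by their counts. List genes named among those of the 5 cells, and the groups of cells by combination, were chosen after their values were seen. The members and lists were chosen with earlier results of these data known. Alternatives changed the threshold, the level, the covariate, the correlation, the filter and the cells used. The labels do not say that the mouse ids are separate animals, so p rests on 4 groups of cells, whose differences may be technical. The variance is moderated over all genes tested, so p measures a gene's own spread between these groups only in part. Promoters are from RefSeq; Adgre1 had no entry. Some list genes are not reported here.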

Additional observations from a re-analysis of the deposited data

How the results depend on the processing

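Of 630 values of rho for 50 pairs of a gene with 1 of the 5 under 13 alternatives, 559 kept their direction and call, 66 lost and 5 gained the call, and 0 called values changed sign. The share of tested genes called was less stable; it was 1.13, 1.35, 0.0965, 0.217 and 2.27% for Adgre1, Apoe, C1qb, C1qc and Cd68. Leaving out a mouse gave 0.573 to 0.866%, 0.0641 to 0.721%, 0.0561 to 0.12%, 0.0722 to 0.289% and 0.673 to 1.76% in that order. Without the cells high for at least 2 of the genes it was 0.0161, 0, 0.0242, 0.0242 and 0.0322% (for Apoe, limma gave 860 genes at an unadjusted p under 0.05), and with Pearson correlation 0.0322, 2.17, 0.0563, 0.00804 and 6.21%. Deposited values as they are gave 0.579% for Adgre1 and 0.0724% for C1qc, and no filter beyond detection in 3 cells gave 0.168% for C1qb and 0.138% for C1qc. Alternatives chosen after seeing the data gave 0.746, 0.377, 0.0401, 0.0963 and 1.44% without the cells high for all 5, 0.646, 0.266 and 0.186% for Adgre1, Apoe and Cd68 without the cells sharing an index with them, and 0.579% for each of Adgre1 and Apoe with sets in place of mice. C1qc was fitted on 3 units in the fits without cells high for at least 2, without cells sharing an index and with sets. The cause was not tested, beyond fewer cells in some fits. Counts of high cells stayed within 1.5 times at thresholds of 4 and 6. Requiring a level of at least 1 left C1qb detected in 44 cells (68) and C1qc in 27 (42). With AF1 well 49 as a further source, 57.3% of cells with a common index had C1qb, against 63.3%. No paired analysis was possible because the labels give 1 group. Read depth per cell is not in the matrix, so a gene not detected may be present below detection.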
